A study of Mus musculus with 6 samples.

Results

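The enzymes of glycolysis and the citric acid cycle were compared between the cerebral cortex of young adult and old adult mice. The members were the 37 genes on a list of these enzymes whose symbols were found among the 55421 rows of the expression tables, 17 for glycolysis with lactate dehydrogenase and 20 for pyruvate entry, the citric acid cycle and its cytosolic counterparts. The rule used only the symbols and no measured value. Aldoa had 2 rows, and the second, with 31 to 52 counts per mouse, was kept apart. The cortex was microdissected from 3 male wild-type (WT) C57BL/6J mice of 6 months (mice 10, 11 and 17) and 3 of 24 months (mice 2, 4 and 5), killed under isoflurane, with a standard diet and no other treatment. Whole cortex was powdered and 10 ng of total RNA went into a low-input RNA-seq library for each mouse, sequenced at 75 bases.

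Glycolysis splits glucose into pyruvate in the cytosol, and lactate dehydrogenase converts pyruvate to lactate and back. In mitochondria the pyruvate dehydrogenase complex turns pyruvate into acetyl-CoA, which citrate synthase feeds into the citric acid cycle, the source of most electrons for the respiratory chain. The brain depends on glucose, and its neurons and astrocytes use different isozymes at several steps, with aldolase C known as an astrocyte enzyme of the cortex and enolase 2 as a neuronal one.

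The start regions of 4 members, picked by the results given below, are shown, and no result rests on these regions. Pfkp and Aldoc were the members called in opposite directions when libraries were scaled on expressed genes, and Ldha and Ldhb form a pair whose ratio did not overlap between the ages. Each is the 250 bases before the gene's start in RefSeq (GRCm38.p6), read along the gene's own strand (for Aldoc and Ldha at the first of 2 listed starts), with every ACGTG or GCGTG on either strand in capitals. These letters are the core of the site bound by hypoxia-inducible factors, regulators known to act on glycolytic genes. The gene bounds given below come from GENCODE and can differ from RefSeq. The Ldha window lies inside those bounds, and the Aldoc and Pfkp windows reach into them.
Pfkp (chr13:6648772-6649021, minus strand): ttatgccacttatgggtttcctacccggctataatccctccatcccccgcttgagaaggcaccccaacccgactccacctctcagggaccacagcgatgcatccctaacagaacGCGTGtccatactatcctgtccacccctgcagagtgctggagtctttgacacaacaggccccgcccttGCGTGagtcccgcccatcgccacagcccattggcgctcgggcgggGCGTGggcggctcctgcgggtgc
Aldoc (chr11:78322823-78323072, plus strand): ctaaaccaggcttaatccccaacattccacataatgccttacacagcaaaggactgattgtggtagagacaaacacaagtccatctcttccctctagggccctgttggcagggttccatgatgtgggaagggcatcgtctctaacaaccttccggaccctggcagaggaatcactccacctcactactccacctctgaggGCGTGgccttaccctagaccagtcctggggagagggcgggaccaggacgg
Ldha (chr7:46845554-46845803, plus strand): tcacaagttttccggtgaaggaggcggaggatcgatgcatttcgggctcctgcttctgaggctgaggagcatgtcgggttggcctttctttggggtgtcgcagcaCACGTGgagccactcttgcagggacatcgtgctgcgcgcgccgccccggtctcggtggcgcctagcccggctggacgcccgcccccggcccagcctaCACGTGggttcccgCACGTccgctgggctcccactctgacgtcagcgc
Ldhb (chr6:142507958-142508207, minus strand): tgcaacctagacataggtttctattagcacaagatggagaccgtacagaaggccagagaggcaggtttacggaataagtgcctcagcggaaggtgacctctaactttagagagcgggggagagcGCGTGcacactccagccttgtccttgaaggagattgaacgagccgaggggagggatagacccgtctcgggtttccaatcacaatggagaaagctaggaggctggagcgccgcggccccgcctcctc
This core was present in 38.6% of the windows of all 27025 genes, in 11 of 17 glycolysis windows (64.7%) and in 10 of 19 windows of the other members (52.6%). Ldha held 5 matches, with a match on each strand counted apart, so that each CACGTG gives a pair of overlapping matches. Pfkp held 3, and Aldoc and Ldhb held 1 each. The GC box (GGGCGG on either strand) was found in 32.9% of all windows, 47.1% of those of glycolysis and 68.4% of those of the other members. The TATA box (TATAAA on either strand) was found in 13% of all windows, in 1 of the glycolysis windows and in 0 of the 19 others. A match describes the letters of this window and says nothing about binding.

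Sequencing gave between 29495379 and 36494240 counts per mouse on genes, so that counting error was small for all members but Hk2 and Suclg2. The 24-month libraries detected 40208 to 43561 genes and the 6-month libraries 33974 to 35651. The scaling factors of the TMM method, which levels libraries on the bulk of the genes, differed with this, at 0.9205 to 0.9459 for 6 months and 1.037 to 1.101 for 24 months. With these factors the median log2 fold change was -0.14 over the 15793 genes of at least 1 CPM (counts scaled to a fixed library total) on average, and changes are therefore also given relative to that median. With TMM factors computed on those expressed genes alone, their median was 0.01. Neurons and astrocytes were present in all libraries by their markers, and the summed level of 6 oligodendrocyte markers was 800.3 TPM (a level per transcript length, scaled to the same total in each library) in 24-month mouse 2 against 1357 to 2484 TPM in the other libraries.

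Transcripts of 17 of the 37 members were lower at 24 months at a false discovery rate (FDR) of 10%, and 0 were higher, in the quasi-likelihood test of edgeR (n = 3 per age). None was higher at an unadjusted p under 0.05, or at 10% FDR by the likelihood ratio and exact tests or DESeq2 (0 each). The same threshold called 8.33% of all 32905 genes tested lower and 10% higher, and 17.3% of the expressed genes lower and 2.47% higher. The changes were small: the fitted log2 fold changes of the members ran from -0.43 to 0.11, with a median of -0.26, or -0.12 relative to the median expressed gene. No member passed the FDR of 1% used in the study's methods (0 by the quasi-likelihood test, 0 by the likelihood ratio and exact tests of edgeR, 0 by DESeq2), while 24 had an unadjusted p under 0.05. At that FDR the likelihood ratio test called 0.766% of all genes lower. The share of all genes at an unadjusted p under 0.05 was not counted.

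Scaling decided most of these calls. With TMM factors from expressed genes, 1 member was lower (Pfkp) and 1 was higher (Aldoc) at 10% FDR, where 2.84% of the expressed genes were lower and 4.35% higher. With library totals alone, 0 members were lower (2 had an unadjusted p under 0.05) and Aldoc was again higher, where 1.96% of the expressed genes were lower and 5.64% higher. The direction held for more members than the call did: 35 of 37 were fitted lower in the first scaling, 31 with expressed-gene factors, where 47.8% of the expressed genes were below 0, and 25 with library totals. The median expressed gene was itself at -0.14 in the first scaling and at 0.049 with library totals.

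**Figure D1:**
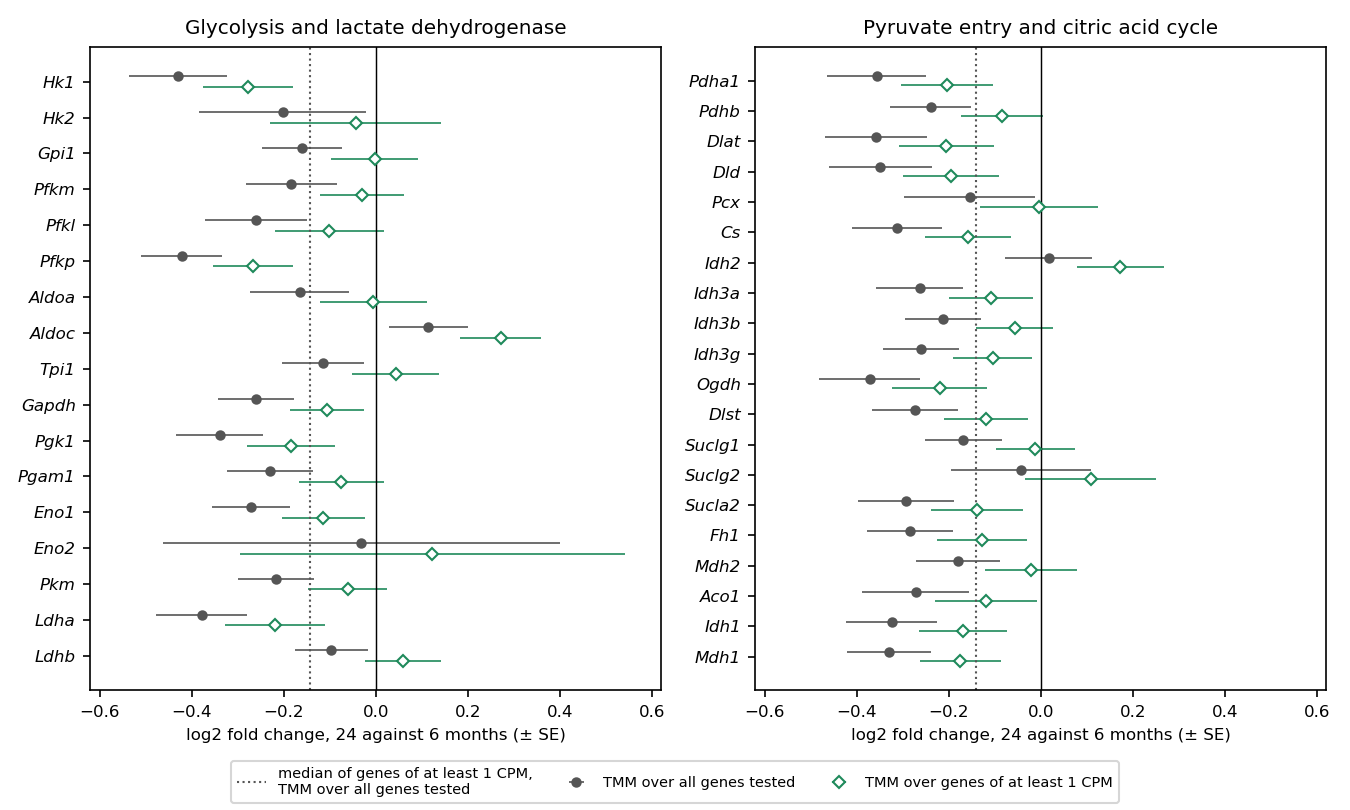
Log2 fold change of each member between 24 and 6 months (x axis, ± SE, n = 3 per age), with TMM factors from all genes tested (grey circles) and from genes of at least 1 CPM (open green diamonds); the dotted line is the median expressed gene in the first scaling. Pfkp and Hk1 lie farthest to the left and Aldoc farthest to the right, and most members move by the same amount between the scalings.

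In TPM, which is scaled to a fixed total in each library, 13 members were lower in all 24-month mice than in any 6-month mouse, and 2 (Aldoc and Idh2) were higher in all. Of the expressed genes, 17.2% were lower and 10.1% higher without overlap. The 13 were Hk1, Pfkp, Gapdh, Pgk1, Eno1, Ldha, Pdha1, Dld, Idh3b, Idh3g, Fh1, Idh1 and Mdh1. In whole tissue, fewer cells of a type and less RNA per cell cannot be told apart.

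**Figure D2:**
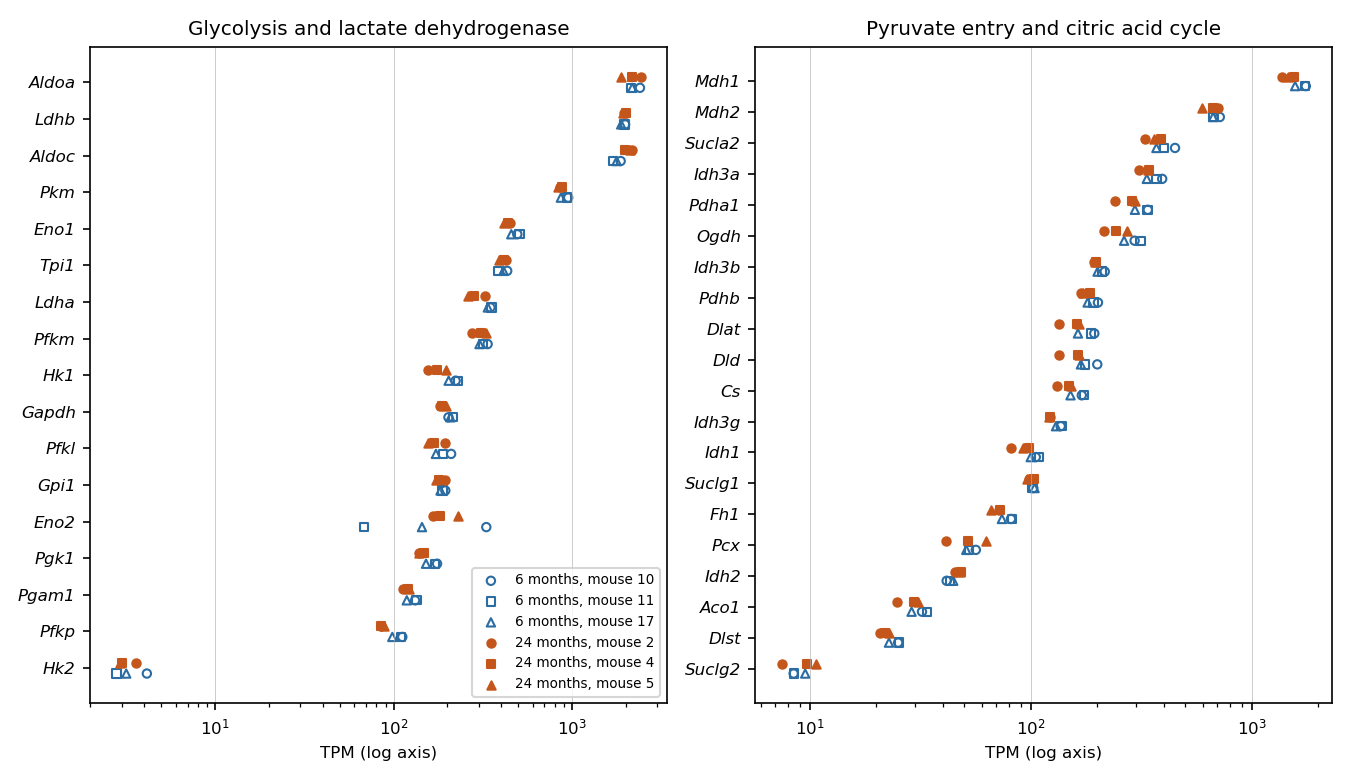
TPM of each member (log x axis) in the 3 mice of 6 months (open blue symbols) and the 3 of 24 months (filled orange symbols), ordered by the 6-month mean. The members span from a mean of 3.37 TPM (Hk2) to 2234 TPM (Aldoa), and the ages lie close together next to that span.

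Among the 17 glycolysis genes, 6 were lower at 24 months at 10% FDR: Hk1, Pfkp, Ldha, Pgk1, Eno1 and Gapdh. The group's median log2 fold change was -0.22, or -0.07 relative to the median expressed gene. With expressed-gene factors the median was -0.06. The genes of highest level, Aldoa, Ldhb, Aldoc and Pkm, which together held 69.3% to 70.6% of the group's TPM at 6 months and 71.4% to 73.3% at 24 months, were not among those called.

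Hk1 encodes the hexokinase most used in brain, the enzyme that traps glucose in the cell. Its level was 222, 230.1 and 203 TPM in 6-month mice 10, 11 and 17 and 155, 174 and 197 TPM in 24-month mice 2, 4 and 5. The ages did not overlap, with 24-month mouse 5 close to the lowest young mouse. The log2 fold change was -0.43 ± 0.11 (SE, edgeR FDR = 0.0562), and -0.28 ± 0.10 (edgeR FDR = 0.113) with expressed-gene factors. Hk2, the hexokinase typical of muscle and fat, was at 4.14, 2.8 and 3.17 TPM at 6 months and 3.58, 3.004 and 2.92 TPM at 24 months. Its ages overlapped. Gpi1, which isomerizes glucose-6-phosphate, ranged from 183 to 195 TPM and from 172 to 195 TPM.

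The 3 phosphofructokinase genes, whose products catalyse the committed step, differed from each other. Pfkp, the platelet-type subunit (GRCm38 chr13:6579768-6648777, minus strand), stood at 112, 109.5 and 98.3 TPM at 6 months and at 84.5, 85.4 and 88.3 TPM at 24 months. All old mice lay below all young ones, and the old mice lay close together. Its log2 fold change was -0.42 ± 0.09 (edgeR FDR = 0.0518), and it was the only member lower at 10% FDR with expressed-gene factors (-0.27 ± 0.09, edgeR FDR = 0.0988). Pfkm, the muscle-type subunit and the highest of the 3 in level, stood at 336, 318 and 303 TPM at 6 months and at 273, 308 and 331 TPM at 24 months. Its ages overlapped. Pfkl, the liver-type subunit, was at 209.8, 189 and 172 TPM and at 193, 168 and 156 TPM, also with overlap (edgeR FDR = 0.147).

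Of the aldolases, Aldoa, the form shared by many tissues, was at 2399.7, 2130.5 and 2171 TPM at 6 months and 2421, 2163 and 1884 TPM at 24 months. The old mice spanned the young ones. Aldoc, the brain form (chr11:78322968-78327781, plus strand), was at 1871, 1699.7 and 1776 TPM at 6 months and at 2176, 1988 and 2099 TPM at 24 months, with every old mouse above every young one. Its log2 fold change was 0.11 ± 0.09 with all-gene factors (edgeR FDR = 0.381), 0.27 ± 0.09 with expressed-gene factors (edgeR FDR = 0.0971) and 0.31 with library totals (edgeR FDR = 0.0676). It was thus the member farthest above the median expressed gene, but it passed the test only in the last 2 of these scalings.

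The summed level of 7 astrocyte markers did not overlap either, at 1338 to 1424 TPM and 1469 to 1589 TPM. Without Gfap, the 1 marker of the 7 that was called higher, the sums overlapped, at 1192 to 1286 TPM and 1207 to 1441 TPM. Aldoc divided by the astrocyte sum was 1.25 to 1.37 at 6 months and 1.32 to 1.48 at 24 months, with overlap. The part of astrocyte content in the Aldoc level was not tested beyond these values.

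In the lower part of the pathway, Tpi1, which interconverts the triose phosphates, was at 433, 385 and 413 TPM and at 427, 416 and 387 TPM, with means of 410.1 ± 24 and 409.9 ± 20.4 TPM (SD, n = 3). Gapdh, which oxidizes glyceraldehyde-3-phosphate, was at 203, 215 and 208 TPM at 6 months and 182, 185 and 197 TPM at 24 months (log2 fold change -0.26 ± 0.08, edgeR FDR = 0.0803). Pgk1, which makes the first ATP of this phase, was at 175, 171 and 152 TPM and at 138, 149 and 139 TPM (-0.34 ± 0.09, edgeR FDR = 0.0632). For both genes the old mice lay below all young mice, by little at the nearest values. Pgam1, the phosphoglycerate mutase, was at 118 to 134 TPM and 113 to 122 TPM and was not called (edgeR FDR = 0.134).

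Eno1, the enolase of most cells, was at 493, 508 and 456 TPM at 6 months and 450.2, 439 and 417 TPM at 24 months. The ages did not overlap (log2 fold change -0.27 ± 0.08, edgeR FDR = 0.0779). Eno2, the neuronal enolase, was the most variable member: mouse 10 had 13717 counts, mouse 11 had 3129 and mouse 17 had 6303, and the old mice 6667, 7756 and 9620. Its levels of 330.4, 68.2 and 144 TPM in the young mice enclosed those of the old mice, 166, 181 and 229 TPM, and the SE of its log2 fold change was 0.43. Pkm, the pyruvate kinase of brain and muscle, was at 865 to 951 TPM and 832 to 875 TPM (edgeR FDR = 0.116).

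Of the lactate dehydrogenase subunits, the scarcer one was called. Ldha, the subunit linked to lactate production (chr7:46841475-46855627, plus strand), was at 348, 354 and 337 TPM at 6 months and 324, 281 and 261 TPM at 24 months. The young mice lay close together and the old ones were all lower, mouse 2 the least so (log2 fold change -0.38 ± 0.10, edgeR FDR = 0.06). Ldhb, the subunit linked to lactate use (chr6:142490249-142507957, minus strand), was at 1981, 1967 and 1884 TPM and at 1963, 2017 and 1921 TPM. Its ages overlapped, and its log2 fold change was -0.10 ± 0.08 in the first scaling and 0.06 ± 0.08 with expressed-gene factors.

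Among the 20 genes of pyruvate entry and the citric acid cycle, 11 were lower at 24 months at 10% FDR, with a median log2 fold change of -0.27, or -0.13 relative to the median expressed gene. With expressed-gene factors edgeR called 0 of them lower, and 0 reached an unadjusted p under 0.05, while 18 of 20 were still fitted lower, with a median of -0.12. The first-scaling calls were Pdha1, Dlat, Dld, Cs, Idh3g, Ogdh, Dlst, Sucla2, Fh1, Idh1 and Mdh1. In summed TPM the group was at 4938 to 5524 TPM at 6 months and 4434 to 4889 TPM at 24 months, without overlap, while glycolysis was at 9487 to 10396 TPM and 9435 to 10119 TPM. The ratio of the sums, which does not depend on scaling, was 1.79 to 1.92 at 6 months and 1.99 to 2.28 at 24 months. Without Aldoc it was 1.47 to 1.56 and 1.55 to 1.79, and the ages overlapped.

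**Figure D3:**
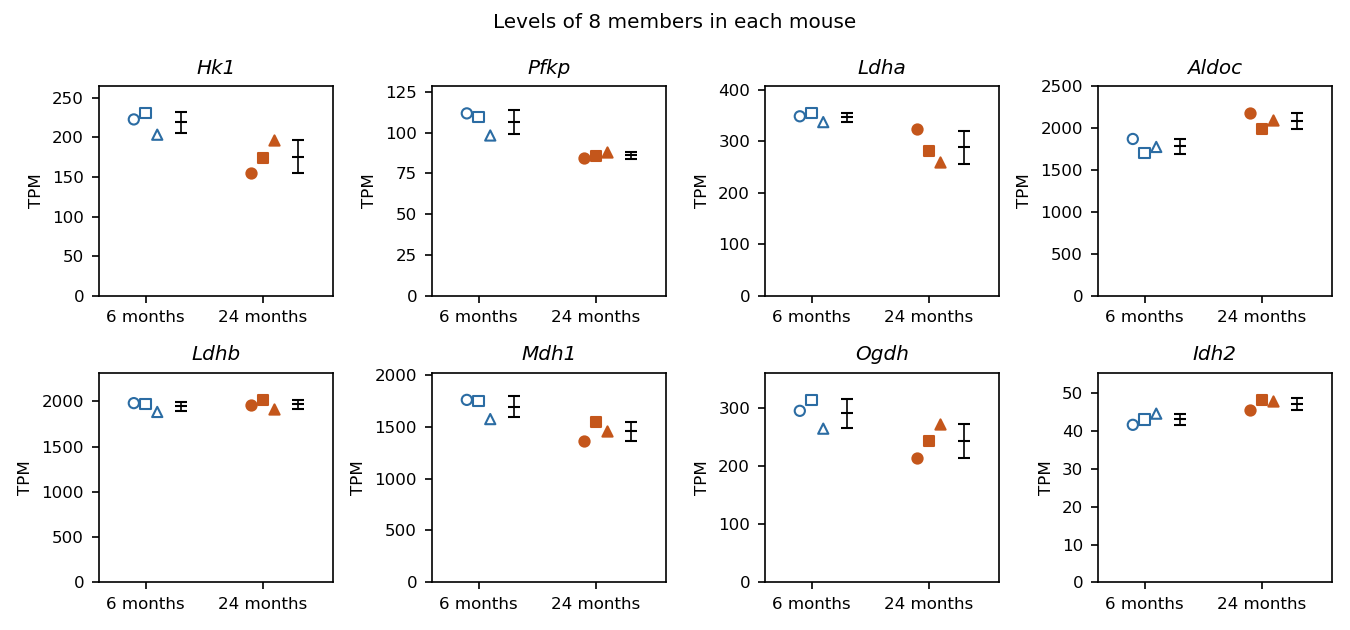
TPM (y axis, from 0) of 8 members in each mouse, with the mean ± SD of each age beside the points (n = 3). Hk1, Pfkp, Ldha and Mdh1 are lower in all old mice, Aldoc and Idh2 are higher in all, and Ldhb and Ogdh overlap.

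Of the pyruvate dehydrogenase complex, Pdha1, the regulated subunit of its first enzyme, was at 339, 338 and 296 TPM at 6 months and at 239.6, 287 and 295 TPM at 24 months. Young mouse 17 and old mouse 5 lay side by side (log2 fold change -0.36 ± 0.11, edgeR FDR = 0.0713). Dlat, the acetyltransferase core, was at 194, 188 and 164 TPM and at 134, 162 and 165 TPM. Dld, the dihydrolipoamide dehydrogenase it shares with other complexes, was at 200.1, 177 and 169 TPM and at 134, 164 and 165 TPM. For both, mouse 2 was far the lowest and the other old mice lay beside young mouse 17; the log2 fold changes were -0.36 ± 0.11 (edgeR FDR = 0.0764) and -0.35 ± 0.11 (edgeR FDR = 0.0822). Pdhb, the partner of Pdha1, was at 202, 192 and 181 TPM and at 169, 185 and 173 TPM and was just outside the threshold (edgeR FDR = 0.108). Pcx, the carboxylase that refills oxaloacetate and is known from astrocytes, was at 56.4, 52.7 and 51.1 TPM and at 41.2, 51.8 and 62.8 TPM. Its old mice enclosed the young ones.

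Cs, the citrate synthase that opens the cycle, was at 170.2, 175 and 151 TPM at 6 months and 131, 148 and 152 TPM at 24 months (log2 fold change -0.31 ± 0.10, edgeR FDR = 0.078). The young and old values met at young mouse 17. Ogdh and Dlst encode the first 2 enzymes of the 2-oxoglutarate dehydrogenase complex. Ogdh was at 295, 314 and 265 TPM and at 215, 243 and 273 TPM, so that old mouse 5 stood above young mouse 17 (-0.37 ± 0.11, edgeR FDR = 0.0705). Dlst was at 25.1, 25.3 and 22.8 TPM and at 20.8, 21.9 and 22.9 TPM, with old mouse 5 beside young mouse 17 (-0.27 ± 0.09, edgeR FDR = 0.0925).

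The 3 subunits of the NAD-dependent isocitrate dehydrogenase had fold changes close to each other. Idh3a, the catalytic subunit, was at 393, 371 and 335 TPM and at 309, 344 and 339 TPM (edgeR FDR = 0.103), and Idh3b at 216, 209.6 and 201 TPM and at 193, 197 and 194 TPM (edgeR FDR = 0.12). Idh3g was at 137, 138 and 130.2 TPM and at 122, 122 and 121 TPM, below all young mice (log2 fold change -0.26 ± 0.08, edgeR FDR = 0.0811). The log2 fold changes of Idh3a and Idh3b were -0.26 ± 0.09 and -0.21 ± 0.08. Idh3g alone of the 3 passed the threshold, and the ratios of Idh3a to both others overlapped between the ages.

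Idh2, the NADP-dependent isocitrate dehydrogenase of mitochondria, did not share these lower levels. It was at 41.6, 43.1 and 44.6 TPM at 6 months and at 45.5, 48.2 and 47.8 TPM at 24 months, higher in all old mice. Its log2 fold change was 0.02 ± 0.09 in the first scaling and 0.17 ± 0.09 with expressed-gene factors, and neither passed the test (edgeR FDR = 0.919 and 0.255). Idh1, its cytosolic counterpart, was at 105, 109 and 100.0 TPM and at 81.8, 98.2 and 91.9 TPM, lower in all old mice (-0.32 ± 0.10, edgeR FDR = 0.0747).

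Of succinyl-CoA synthetase, Sucla2, the subunit of the ATP-forming enzyme that is abundant in brain, was at 449.8, 402 and 371 TPM and at 330.1, 387 and 363 TPM (log2 fold change -0.29 ± 0.10, edgeR FDR = 0.0993, at the edge of the threshold). Its ages overlapped. Suclg2, the subunit of the GTP-forming enzyme, was at 8.46, 8.51 and 9.54 TPM and at 7.47, 9.68 and 10.7 TPM, and Suclg1, the subunit shared by both, at 102 to 104 TPM and 95.9 to 103 TPM; neither was called. Fh1, the fumarase, was at 81.4, 82.1 and 74.1 TPM and at 72, 72.8 and 66.2 TPM, lower in all old mice (-0.28 ± 0.09, edgeR FDR = 0.0839). Mdh2, the mitochondrial malate dehydrogenase, was at 717, 671 and 669 TPM and at 701, 668 and 595 TPM, with overlap (edgeR FDR = 0.208).

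Mdh1, the cytosolic malate dehydrogenase of the malate-aspartate shuttle (chr11:21556787-21572367, minus strand), had the highest level of the 20. It was at 1757, 1746 and 1572 TPM at 6 months and at 1365, 1546 and 1457 TPM at 24 months. The old mice were below all young ones, with old mouse 4 close to young mouse 17 (log2 fold change -0.33 ± 0.09, edgeR FDR = 0.0625). Aco1, the cytosolic aconitase that doubles as an iron sensor, was at 28.9 to 33.9 TPM and 24.8 to 30.8 TPM (edgeR FDR = 0.148).

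Old mouse 2 was the lowest of its age in 16 of these 20 genes, and young mouse 17 the lowest of its age in 17 of 20. In glycolysis mouse 2 was the lowest of its age in 7 and the highest in 8 of 17 genes, mouse 5 the lowest in 9 and mouse 17 the lowest in 11. The calls changed with the mice that entered the fit. The share of all genes called, or at an unadjusted p under 0.05, was not counted in such fits. Leaving out mouse 2, 4, 10 or 11 left 0 of the 37 members called lower by the test of edgeR, with 17, 18, 14 and 3 members at an unadjusted p under 0.05, while leaving out mouse 17 left 8 and leaving out mouse 5 left 16. The median log2 fold changes stayed between -0.26 and -0.18 for glycolysis and between -0.33 and -0.22 for the cycle in these 6 fits of 5 mice. Of 8 neuron markers 3 were called lower (Syt1, Camk2a and Stmn2), where 17.3% of the expressed genes were, and Stmn2 alone of them with expressed-gene factors. The summed level of the 8 was 5276 to 5791 TPM at 6 months and 4682 and 5330.0 TPM in mice 4 and 5, with mouse 2 the lowest at 4262 TPM. The part of neuron content in the lower members was not tested.

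The ratio of 2 members within a library does not depend on scaling, and 12 ratios of isozymes or subunits were compared. The exact permutation test of 3 against 3 mice cannot go below p = 0.1 (two-sided), which 4 ratios reached, with 0.3 after adjustment over the 12. Idh1 to Idh2 was 2.24 to 2.54 at 6 months and 1.80 to 2.04 at 24 months without overlap, a fold of 0.788. Ldha to Ldhb was 0.176 to 0.180 and 0.136 to 0.165, a fold of 0.82, and Aldoa to Aldoc was 1.22 to 1.28 and 0.898 to 1.11, a fold of 0.821. Pfkm to Pfkp was higher in all old mice, at 2.90 to 3.08 and 3.23 to 3.75, a fold of 1.18. The other 8 ratios overlapped between the ages, with Idh3a to Idh3g at 2.58 to 2.88 and 2.54 to 2.81 and Eno1 to Eno2 at 1.49 to 7.46 and 1.82 to 2.71.

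**Figure D4:**
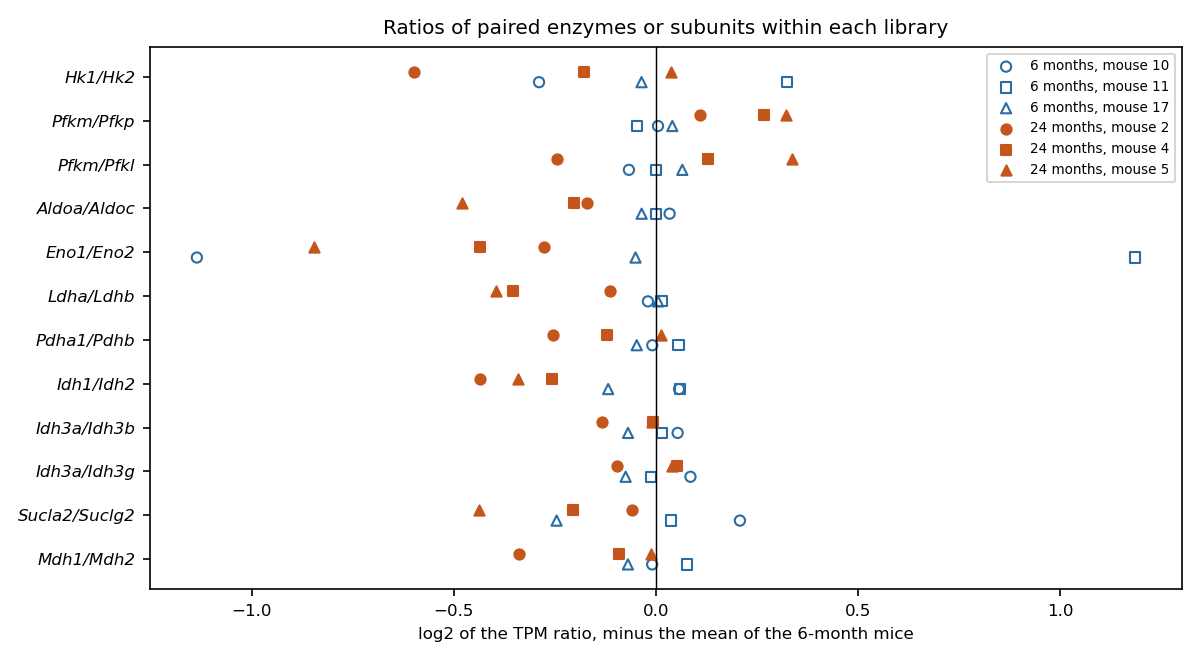
Log2 of the TPM ratio of paired enzymes or subunits within each library, less the mean of the 6-month mice (x axis), for the 3 mice of 6 months (open blue) and the 3 of 24 months (filled orange). Pfkm/Pfkp is to the right and Aldoa/Aldoc, Ldha/Ldhb and Idh1/Idh2 to the left in all old mice, and the other 8 ratios overlap.

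Several glycolytic genes have processed copies in the genome. The study's methods counted reads that map to several places by fraction and set a minimum mapping quality. The deposited counts are whole numbers, so such reads appear to have been removed by that minimum, which was not checked on the reads. Of the 69-base words in the exons of Pgk1, 53% also occurred in the transcripts of other genes. The share was 35.2% for Pgam1, 23.7% for Eno1, 23.1% for Gapdh, 19.5% for Pkm, 14.1% for Ldhb and 11.8% for Gpi1. Exons of Pkm overlap those of Gm49759 on the same strand over 15.3% of their length. Those of Gpi1 overlap Gm26762 on the other strand over 11.5%. The words of Gapdh were found in 134 other genes, 127 of them pseudogenes. The levels of these genes are therefore uncertain, and too low where such reads were removed. The part of such reads in their change between the ages was not tested. In the second group the shares over 10% were 12.6% for Suclg2 and 11% for Pdha1, whose exons overlap those of Map3k15 on the other strand over 16.1% of their length. Exons of Pfkm overlap those of Gm26513 on the same strand and Senp1 on the other over 10.7% of their length. Exons of Pfkp overlap those of Pitrm1 on the other strand over 5.58%. The study's methods list no strand option, so that counting was unstranded by default. The strand of a read there did not decide between the overlapping genes.

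**Figure D5:**
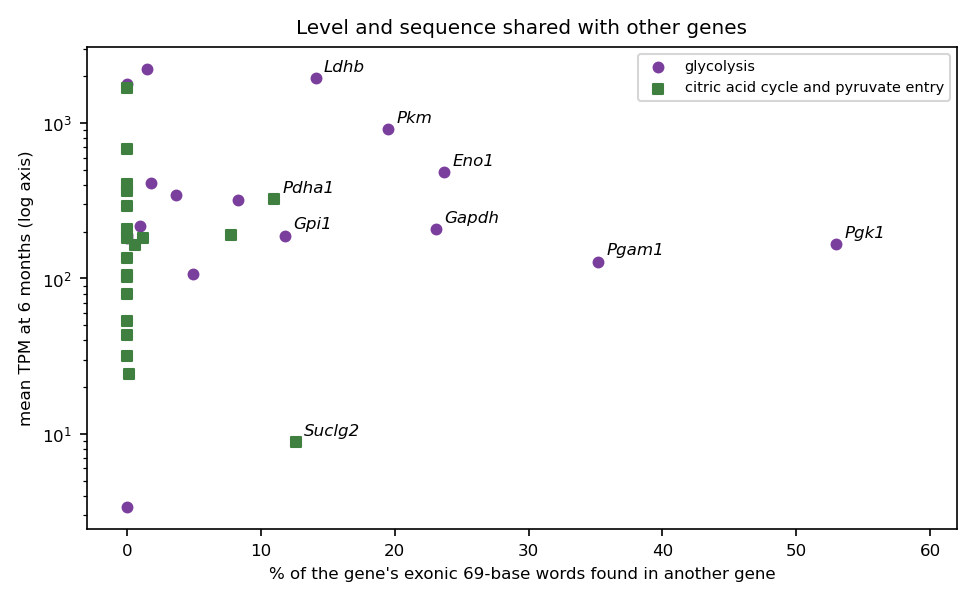
Mean TPM at 6 months (log y axis) against the share of 69-base exonic words found in another gene (x axis, percent) for glycolysis (purple circles) and the other members (green squares). Genes over 10% are named, with Pgk1 at 53% the most affected.

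Of the pathway genes outside the list, Sdhaf2, an assembly factor of succinate dehydrogenase, was called lower (log2 fold change -0.31 ± 0.09, edgeR FDR = 0.0684). In the first scaling 17.3% of the expressed genes were called lower. Sdha, Sdhb, Sdhc and Sdhd, the subunits of succinate dehydrogenase, were not called (edgeR FDR = 0.185, 0.492, 0.136 and 0.13). Of 8 regulators and binding proteins of pyruvate dehydrogenase, 3 were lower: the kinase Pdk3, the phosphatase Pdp1 and the binding protein Pdhx (-0.40 ± 0.11, -0.41 ± 0.12 and -0.30 ± 0.10). With expressed-gene factors none of these 4 passed (edgeR FDR = 0.284, 0.155, 0.174 and 0.346).

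Of 7 transporters, 3 were lower at 10% FDR, where 17.3% of the expressed genes were. Slc2a3, the glucose transporter of neurons, was at 120.2, 129 and 114 TPM at 6 months and at 97.1, 93.4 and 84.5 TPM at 24 months, below all young mice (log2 fold change -0.51 ± 0.09, edgeR FDR = 0.0518). It was also called with expressed-gene factors (-0.36, edgeR FDR = 0.0747). Slc2a1, the glucose transporter of vessels and astrocytes, was at 69.8 to 75.9 TPM and 66.4 to 76.2 TPM and was not called. Slc16a1, a lactate transporter, and Mpc2, a subunit of the mitochondrial pyruvate carrier, were lower in the first scaling only (-0.38 ± 0.13 and -0.30 ± 0.09), and Mpc1, the other subunit, was not called (edgeR FDR = 0.259). Of 5 regulators of phosphofructokinase, Pfkfb3, which makes its activator, was lower in both scalings, at 20.5, 24.6 and 17.7 TPM and at 11.6, 13.7 and 17.0 TPM (-0.68 ± 0.16, edgeR FDR = 0.0552, and -0.53, edgeR FDR = 0.0763).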

How the data were processed

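The data are bulk RNA-seq libraries of cerebral cortex, 1 from each of 6 male mice (3 per age). Per the labels and the study's methods, the authors trimmed the reads with Trim Galore (version 0.6.4), mapped them to GRCm38 with STAR (version 2.7.3a) and counted them on exons per gene with featureCounts of Subread (version 2.0.0). Their options count multi-mapping reads by fraction, with a minimum mapping quality and no strand option. The deposited count tables hold whole numbers, so multi-mapping reads appear to have been removed by that minimum, which was not checked. The count tables were used as they are. The deposited TPM values, made by the authors from counts and exonic length, were used for levels, sums and ratios.

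Differential expression was computed with edgeR (version 4.0.16, R 4.3.3): TMM factors, genes of at least 10 counts over the 6 libraries, the quasi-likelihood test without covariates and Benjamini-Hochberg adjustment over 32905 genes. Calls use an FDR of 10%, beside the 1% of the study's methods, because the quasi-likelihood test gave no gene at 1% in earlier results of these data. Alternatives were other scalings and filters, other tests of edgeR, DESeq2 (version 1.42.0), limma (version 3.58.1) on log2 TPM with a pseudocount of 1 or 0.1, and each mouse left out in turn. Nothing in the labels ties mice of the 2 ages to each other. The code was tested on simulated data. Ratios used exact permutation tests (scipy 1.17.1). Positions and the words of 69 bases, the read length after trimming, come from GENCODE vM21, and 36 of 37 members had a RefSeq window. Members were matched by symbol, and all 37 passed the count filter. All members are described, with values in each mouse for those called, those with the largest and smallest changes and those in a ratio. Some genes of the other pathway lists are not reported here. Members, lists and tests were chosen with earlier results of these data known. Of the 7 microglia markers, Tmem119 was called higher and Csf1r lower, and of the lists of endothelial cells, red blood cells, choroid plexus, striatum and meninges 1 gene, Hbb-bt, was called lower. No oligodendrocyte marker was called.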

Additional observations from a re-analysis of the deposited data

How the results depend on the processing

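The calls depended on the scaling, the filter and which mice entered, and the direction of most members less so. Against 6 glycolysis members called lower, 0 higher and a median log2 fold change of -0.22, library totals gave 0 lower, 1 higher and -0.024, TMM on expressed genes gave 1 lower, 1 higher and -0.061, the edgeR expression filter gave 1 lower and -0.10, limma gave 0 lower and -0.10 with a pseudocount of 1 and 1 lower and -0.10 with 0.1, and no filter gave 3 lower. Against 11 citric acid cycle members called lower and a median of -0.27, library totals gave 0 and -0.082, TMM on expressed genes 0 and -0.12, the expression filter 0 and -0.16, limma 0 and -0.15 or 0 and -0.16 for the same pseudocounts, no filter 3, DESeq2 size factors 7, and the likelihood ratio, exact and Wald tests 6, 4 and 1. With 1 mouse left out, the calls ran from 0 to 6 for glycolysis and from 0 to 10 for the cycle. The medians then ran from -0.26 to -0.18 and from -0.33 to -0.22. The share of all genes called with 1 mouse left out was not counted.

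The sign turned for members near 0, and none of these values passed the test. With library totals the log2 fold changes of Gpi1, Pfkm, Aldoa, Tpi1, Eno2, Ldhb, Pcx, Suclg1, Suclg2 and Mdh2 were 0.035, 0.0069, 0.032, 0.080, 0.17, 0.097, 0.033, 0.024, 0.14 and 0.015. With TMM on expressed genes those of Tpi1, Eno2, Ldhb and Suclg2 were 0.043, 0.12, 0.060 and 0.11, and with the expression filter 0.0006, 0.081, 0.017 and 0.067. In limma those of Eno2, Ldhb and Suclg2 were 0.36, 0.017 and 0.051 with a pseudocount of 1 and 0.36, 0.017 and 0.055 with 0.1, and with no filter that of Eno2 was 0.0026. With 1 mouse left out Eno2 ranged from -0.40 to 0.75, Suclg2 from -0.15 to 0.10 and Idh2 from -0.0022 to 0.053. The log2 ratio change then ranged from -0.057 to 0.23 for Pfkm to Pfkl, from -1.09 to 0.073 for Eno1 to Eno2 and from -0.039 to 0.046 for Idh3a to Idh3g. The cause of these turns was not tested.

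Of 592 values (37 members under 16 alternatives), 31 turned sign, 206 lost and 3 gained a call, and 352 kept direction and call. Only the 17 members called in the first scaling had a call to lose, and most of their values under the alternatives lost it. Most of the 352 values belonged to members that were not called in the first scaling. Pfkp was called lower in 11 of 17 settings, Hk1 and Mdh1 in 8, and Aldoc higher in 2. No paired analysis was possible because the ages share no mouse numbers. Depth limits Suclg2 and Hk2 most.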

Other observations

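Genes of neighbouring pathways from the same fit gave a few further calls. In that fit 17.3% of the expressed genes were called lower and 2.47% higher. Of 15 anaplerotic and shuttle enzymes, Got1 and Got2, the aminotransferases of the malate-aspartate shuttle, and Gpd2, of the glycerol phosphate shuttle, were lower at 24 months at 10% FDR by edgeR (log2 fold change -0.38 ± 0.09, -0.33 ± 0.10 and -0.47 ± 0.10). Gpd2 was at 82.6, 82.6 and 79.7 TPM in the young mice and at 57.5, 62.2 and 71.2 TPM in the old mice, and it was the one of the 3 also called with expressed-gene factors (edgeR FDR = 0.0771). Of 8 genes of the pentose phosphate pathway, Rpe, an epimerase, was lower, at 41.1, 42.9 and 35.6 TPM and at 25.2, 29.9 and 34.0 TPM (-0.54 ± 0.13), and it was called in both scalings. Rpia, an isomerase of the same pathway, was scarce, at 0.909, 1.32 and 1.59 TPM and at 2.695, 1.83 and 1.86 TPM, and was called higher with expressed-gene factors (0.78, edgeR FDR = 0.0957) but not in the first scaling (0.62 ± 0.25, edgeR FDR = 0.125).

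Of other glycolytic isozymes, Adpgk was lower and Pgk2 and Pklr were higher. The higher ones were scarce: Pgk2, the testis form, had 0 or 1 counts in the young mice and 5 or 6 in the old, and Pklr 1 or 2 and 3 to 9. The libraries of the old mice detected more genes of few counts in general, and the part of this in both results was not tested.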
